A study of Eriocheir sinensis with 6 samples.

Results

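Of 104657 merged accessible regions in muscle of the Chinese mitten crab (Eriocheir sinensis), 7509 (7.17%) lay on 313 unplaced scaffolds, the assembly sequences that are not assigned to a chromosome. They were chosen by sequence name alone, as the rows of the authors' merged peak table whose sequence does not carry a chromosome-level name, and 97148 merged peaks on 72 placed sequences made up the rest. A total of 14 of the 7509 lay on 1 scaffold, JACDRO010004310.1, which is described apart, and 7495 lay on 312 other scaffolds. Accessibility was measured by ATAC-seq, where Tn5 transposase inserts adapters into open DNA of isolated nuclei, in 3 post-molt (A stage) and 3 pre-molt (D stage) libraries. The crabs came from a farm and were 8.41 ± 1.47 g in weight, and neither stage had a genetic change or a treatment named in the labels. The molt stage is the only labelled difference, and the number of crabs is 1 for each library as far as the labels say. The comparison asks how accessibility differed between muscle taken after and before the shedding of the exoskeleton.

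Crustaceans grow by molting, and limb muscle shrinks before the shed so that it can be withdrawn through the joints, then regrows afterwards. Accessible regions mark promoters and enhancers that transcription factors can reach. Unplaced scaffolds in a draft genome commonly hold repeat-rich or duplicated sequence that could not be anchored to a chromosome. They also carry genes, so peaks on them can include regulatory regions. Whether the peaks here are regulatory was not tested. Gene models on these scaffolds carry identifiers only (evm.TU names), and 0 of the 653 identifiers linked to scaffold peaks matched the RefSeq gene table at hand, so no gene function is given and the muscle label could not be checked against marker genes. ATAC-seq of whole tissue does not separate cell types, so a change in accessibility within cells and a change in the mix of cells cannot be told apart.

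Pre-molt replicate 2 stood apart from the other libraries. Reads in merged peaks made up 36.7% of its reads, against 23.8% to 27.9% in the other 5 libraries, and its TMM scaling factor was 0.841 against 1.00 to 1.09. Totals ranged from 41050903 to 51652893 reads per library, of which 10992785 to 16985168 lay in merged peaks. For named results that turned on this library, this is stated.

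Unplaced scaffolds took 12.6%, 12.1% and 13.7% of the reads in merged peaks in post-molt replicates 1, 2 and 3, against 15.3%, 9.48% and 14.8% in pre-molt replicates 1, 2 and 3. The stage means were 12.8 ± 0.815% post-molt and 13.2 ± 3.23% pre-molt (SD, n = 3 each). The post-molt libraries lay close together, inside the range set by the pre-molt ones, whose lowest value came from replicate 2. The difference of -0.37 percentage points was smaller than the SD of either stage (two-sided exact permutation p = 0.9, where 3 against 3 libraries cannot go below 0.1). Without pre-molt replicate 2 the difference was -2.23 points (exact permutation p = 0.2, the smallest that 3 against 2 allows).

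As a share of all reads of a library, the order of the stages was clearer. Scaffold peaks held 3.32%, 3.03% and 3.39% of all reads in post-molt replicates 1, 2 and 3, and 3.64%, 3.48% and 4.14% in pre-molt replicates 1, 2 and 3. Every post-molt library lay below every pre-molt library, with means of 3.25 ± 0.189% post-molt and 3.75 ± 0.343% pre-molt (SD, n = 3 each). The exact permutation p was 0.1, the smallest this design allows, and 0.3 after adjustment over the 6 share comparisons made. The share of reads in any merged peak did not have this order, since pre-molt replicate 1 was the lowest of the 6 libraries (23.8%) and pre-molt replicate 2 the highest (36.7%).

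**Figure D1:**
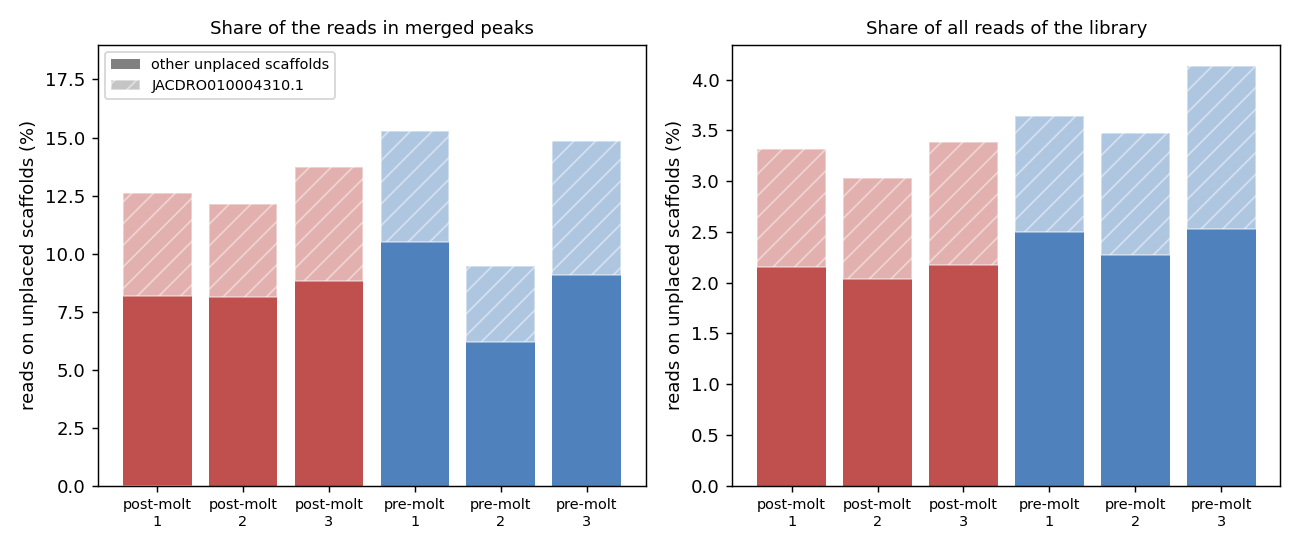
Reads on unplaced scaffolds in each library, as a percentage of the reads in merged peaks (left) and of all reads of the library (right). Solid bars are the 312 other scaffolds, hatched bars JACDRO010004310.1. On the left, pre-molt replicate 2 is the lowest bar at 9.48%, and on the right the 3 post-molt bars, up to 3.39%, stay below the 3 pre-molt bars, which begin at 3.48%.

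JACDRO010004310.1 alone took a large part of the scaffold reads. It held 4.44%, 4.0% and 4.90% of the reads in merged peaks in post-molt replicates 1, 2 and 3, and 4.81%, 3.27% and 5.77% in pre-molt replicates 1, 2 and 3. These are 31.4% to 38.9% of all scaffold reads, from 14 of 7509 peaks. The means were 4.45 ± 0.449% post-molt and 4.62 ± 1.26% pre-molt (SD, n = 3 each), and the stages overlapped (exact permutation p = 0.9, two-sided). The other scaffolds held 8.38 ± 0.385% post-molt and 8.59 ± 2.18% pre-molt, also overlapping (exact permutation p = 0.9). Without pre-molt replicate 2 the difference was -0.84 points for JACDRO010004310.1, where the stages still overlapped, and -1.39 points for the other scaffolds, where they did not. As a share of all reads, the order of the stages was seen in the other scaffolds and not in JACDRO010004310.1. The other scaffolds held 2.12 ± 0.0783% post-molt and 2.43 ± 0.137% pre-molt (SD, n = 3 each). Their stages did not overlap (exact permutation p = 0.1, adjusted 0.3). JACDRO010004310.1 held 1.13 ± 0.111% post-molt and 1.32 ± 0.253% pre-molt, with overlap (exact permutation p = 0.5, adjusted 0.9).

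Nearly all reads of JACDRO010004310.1 came from a block of 8 neighbouring peaks between positions 26845 and 41684. The block held 99.7% of the scaffold's reads in every library, over 11017 peak bases separated by gaps of 149 to 1500 bp. It collected 500206, 479350 and 537394 reads in post-molt replicates 1, 2 and 3, and 589663, 554318 and 658757 reads in pre-molt replicates 1, 2 and 3. Per base of peak, the block peaks averaged 29.8 to 62.8 reads, whereas the 6 peaks between positions 2596 and 17330 of the same scaffold averaged 0.133 to 0.566 reads. The boundary between dense and sparse peaks thus fell inside 1 scaffold.

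The peak with the most reads, JACDRO010004310.1:32680-34859, held 123797, 121826 and 131479 reads in post-molt libraries and 144827, 141072 and 157880 reads in pre-molt libraries. Its mean of 136814 reads was 8.97 times that of the highest peak on a placed sequence (15255 reads) and 34.2 times that of the highest peak on any other scaffold (3997 reads). All post-molt counts lay below all pre-molt counts before scaling. In CPM, the reads scaled to library size in merged peaks times the TMM factor, it measured 10656, 9603 and 10982 post-molt against 11750, 9875 and 13734 pre-molt. The groups overlapped, and the log2 change, post-molt over pre-molt here and below, was -0.18 (SE 0.25, edgeR adjusted p = 0.721). Here and below the adjusted p is that of edgeR's quasi-likelihood test over all merged peaks, a peak is called at a value under 0.05, and it is then said to have risen or fallen.

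The next densest peaks had changes of similar size. JACDRO010004310.1:36360-37659, at 59.99 reads per base, measured 6192, 5450 and 6367 CPM post-molt and 6626, 5365 and 8030 CPM pre-molt, with a log2 change of -0.15 (SE 0.26). JACDRO010004310.1:30213-32350 measured 9185, 8120 and 9372 CPM post-molt and 10350, 7991 and 11778 CPM pre-molt, with a log2 change of -0.18 (SE 0.25). JACDRO010004310.1:28301-30063 measured 6262, 5457 and 6585 CPM post-molt and 6968, 6042 and 8795 CPM pre-molt, with a log2 change of -0.25 (SE 0.26). In each of these peaks pre-molt replicate 3 was the highest library and the stages overlapped. JACDRO010004310.1:38221-40381 had a log2 change of -0.20 (SE 0.26), and the short peak JACDRO010004310.1:26845-27149 one of -0.20 (SE 0.28).

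Within the block the proportions of the larger peaks were close between libraries, and those of the small ones varied more. The densest peak made up 24.0% to 25.4% of the block's reads across the 6 libraries, its left neighbour 20.6% to 21.6%, and the short first peak 1.81% to 2.09%. JACDRO010004310.1:27403-27810 made up 2.30% to 2.94% and JACDRO010004310.1:40923-41684 made up 3.66% to 4.51%, both highest in pre-molt replicate 3.

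None of the 14 peaks passed the test, with edgeR adjusted p between 0.165 and 0.977. All 14 log2 changes were below 0, from -0.77 to -0.03, and 1 had an unadjusted p under 0.05 (JACDRO010004310.1:7097-7389, named after its values were seen). Without pre-molt replicate 2, 1 peak was called, JACDRO010004310.1:30213-32350, with a log2 change of -0.30 (edgeR adjusted p = 0.0441). The sign also depended on the scaling. With reads summed over each of 385 sequences and TMM factors taken from those sums, the scaffold's log2 change was 0.01 (SE 0.16, edgeR adjusted p = 0.997), and with the factors of the fit across all merged peaks it was -0.20 (SE 0.14, edgeR adjusted p = 0.625).

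The authors' measures of enrichment placed the block differently. In the merged table, where fold enrichment sets reads per base against a uniform background over the genome, the densest peak had values of 1682, 1478 and 1722 in post-molt and 1636, 1778 and 2244 in pre-molt libraries. The highest value of any placed peak was between 291 and 665 depending on the library. In the MACS2 peak lists, which give a fold enrichment at the summit of each region, the highest value on this scaffold was only 5.33 to 9.40 per library, against 46.9 to 48.5 on placed sequences. The block thus held the highest values by reads per base and not by summit enrichment. Its significance score in those lists reached a -log10 q of 338 to 760.

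Only 1 gene model was linked to the 14 peaks, evm.TU.JACDRO010004310.1.1, at positions 4527 to 6041. The first peak, JACDRO010004310.1:2596-5375, overlaps its start, while the block begins more than 20 kb away and was classed as distal intergenic. The peak over the start averaged 1122 reads, or 0.403 reads per base, and did not pass the test (edgeR adjusted p = 0.788).

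**Figure D2:**
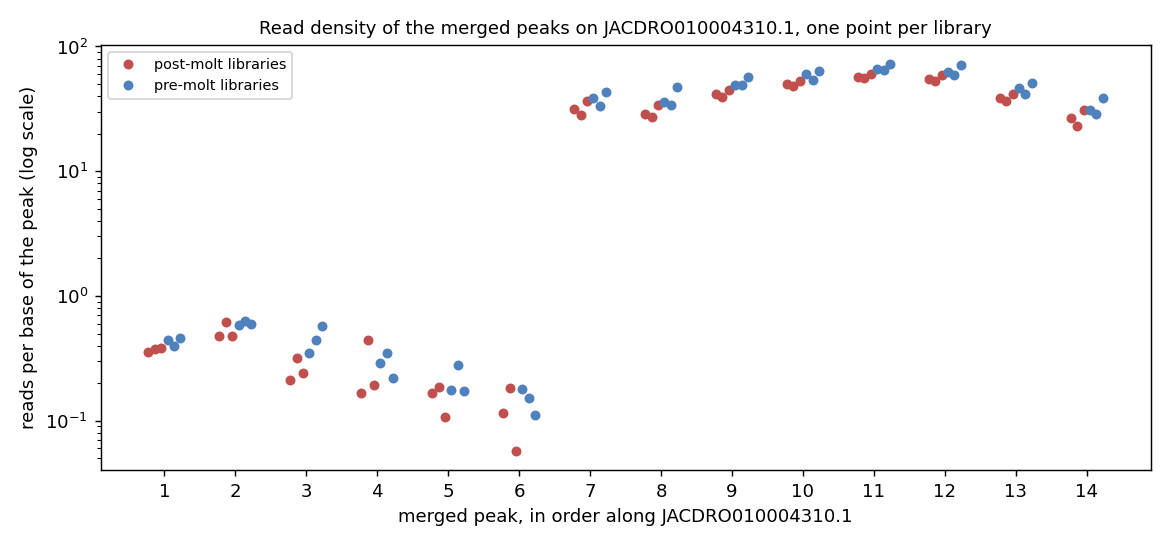
Reads per base (log axis) in each of the 14 merged peaks of JACDRO010004310.1, in order along the scaffold, with 1 point per library, post-molt libraries left of pre-molt libraries at each peak. Peaks 7 to 14 form the block at means of 29.8 to 62.8 reads per base, while peaks 1 to 6 lie at means of 0.133 to 0.566. Reads are not scaled for library size here.

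On all scaffolds together, peaks were wider and held more reads than those on placed sequences, and their median distance to the linked start site was larger. Their median width was 405 bp against 343 bp on placed sequences, and their median mean count was 72.8 against 50.8 reads per library. That distance was 19307 bp, against 16288 bp on placed sequences. Among distal intergenic peaks alone the order was the other way, at 28947 bp against 31518 bp. Peaks were also called more regularly: 2142 (28.5%) had a peak call in all 6 libraries and 2136 (28.4%) in 1 library only, against 18.4% and 43.3% of placed peaks. These shares are descriptions of the table and were not tested.

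Distal intergenic regions dominated. The authors' annotation put 5481 scaffold peaks (73.0%) in this class, against 51.7% of placed peaks. Promoter peaks, which reach up to 3 kb from a start site, numbered 1053 (14.0% against 19.8% on placed sequences), of which 516 lay within 1 kb, 283 at 1 to 2 kb and 254 at 2 to 3 kb. Introns held 575 (7.66% against 21.1%), exons 260 (3.46% against 5.05%) and the stretch downstream of a gene 127 (1.69% against 1.56%). There were 12 peaks in 3′ UTRs and 1 in a 5′ UTR. In percentage points the sets differed most in distal peaks, which were the larger share on scaffolds, and next in introns, which were the smaller share.

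By reads, distal peaks came first and promoter peaks next in every library. On the scaffolds other than JACDRO010004310.1, distal peaks held 64.9% to 68.1% of the reads, promoter peaks 17.6% to 20.0%, introns 6.02% to 6.50% and exons 5.88% to 6.62%. Among distal peaks, 907 lay within 10 kb of the linked start site, 2959 at 10 to 50 kb and 1615 beyond 50 kb. The farthest was 931485 bp away.

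**Figure D3:**
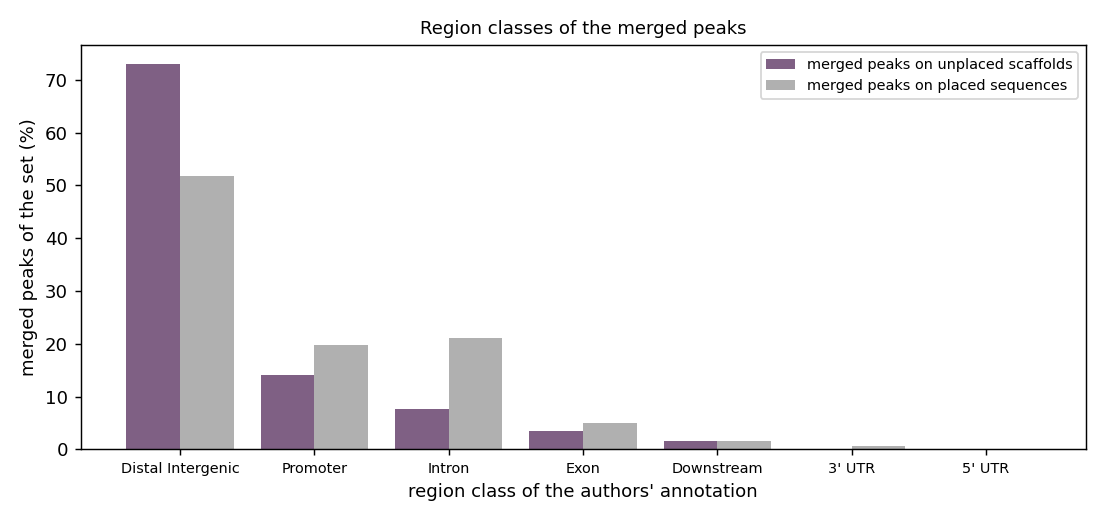
Share of merged peaks in each region class of the authors' annotation, for unplaced scaffolds (purple) and placed sequences (grey). Distal intergenic peaks make up 73.0% of the scaffold peaks and 51.7% of the placed ones, and intronic peaks 7.66% and 21.1%.

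Few scaffold peaks changed between the stages. A total of 40 rose and 36 fell post-molt, together 76 of 7509 (1.01%), against a background of 9.95% called among all merged peaks (6.08% higher and 3.86% lower post-molt). No filter on low counts was applied, and 7506 of the scaffold peaks averaged at least 10 reads. At an unadjusted p under 0.05 there were 515 scaffold peaks (6.86%), against 25.04% of placed peaks. The median log2 change was -0.16 on scaffolds and -0.03 over all merged peaks. A total of 65.7% of scaffold peaks against 51.7% of all peaks lay below 0. Without pre-molt replicate 1 the medians were -0.015 and 0.013, and without pre-molt replicate 2 they were -0.28 and 0.0039. With median centring they were -0.27 and -0.15. The size of the lean below 0 thus depended on single libraries and on scaling.

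The split between the directions, 52.6% higher, depended on scaling and on single libraries. With libraries centred on their medians, which moved the median log2 change of all peaks by -0.12, 27 scaffold peaks were higher and 67 lower (28.7% higher). DESeq2 called 45 higher and 62 lower (42.1% higher). Leaving out pre-molt replicate 2 gave 20 higher and 91 lower, and leaving out pre-molt replicate 3 gave 13 and 14. Without pre-molt replicate 1 the counts were 47 and 22. Without post-molt replicates 1, 2 and 3 they were 25 and 41, 33 and 22, and 19 and 19. The share of scaffold peaks called stayed between 0.360% and 1.48% over these settings, and that of placed peaks between 4.06% and 12.4%.

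The low share of calls was seen at every read depth. Among peaks with 240 or more mean reads per library, 9 of 1052 scaffold peaks were called (0.856%), against 16.1% of placed peaks in that range. At 60 to 120 reads the shares were 1.33% and 14.2%, and under 30 reads 0.403% and 3.73%. On scaffolds the share was highest at 60 to 120 reads and lower in deeper peaks, whereas on placed sequences it was highest in the deepest peaks.

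The changes themselves had a narrower spread on scaffolds. The SD of the log2 change across peaks was 0.48 on scaffolds and 0.85 on placed sequences, and 357 scaffold peaks (4.75%) against 20.7% of placed peaks differed by more than 1 on the log2 scale. The median SD of log2 CPM (with 0.1 added) between replicates was 0.36 on scaffolds and 0.35 on placed sequences post-molt, and 0.45 and 0.46 pre-molt. Within ranges of equal read depth the post-molt replicate SD was higher on scaffolds in all 5 ranges (0.24 against 0.20 at 240 reads or more), and the pre-molt one was higher below 120 reads and lower above (0.35 against 0.45 at 240 reads or more). Across settings, the SD of the log2 change stayed between 0.40 and 0.55 on scaffolds and between 0.68 and 0.91 on placed sequences.

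**Figure D4:**
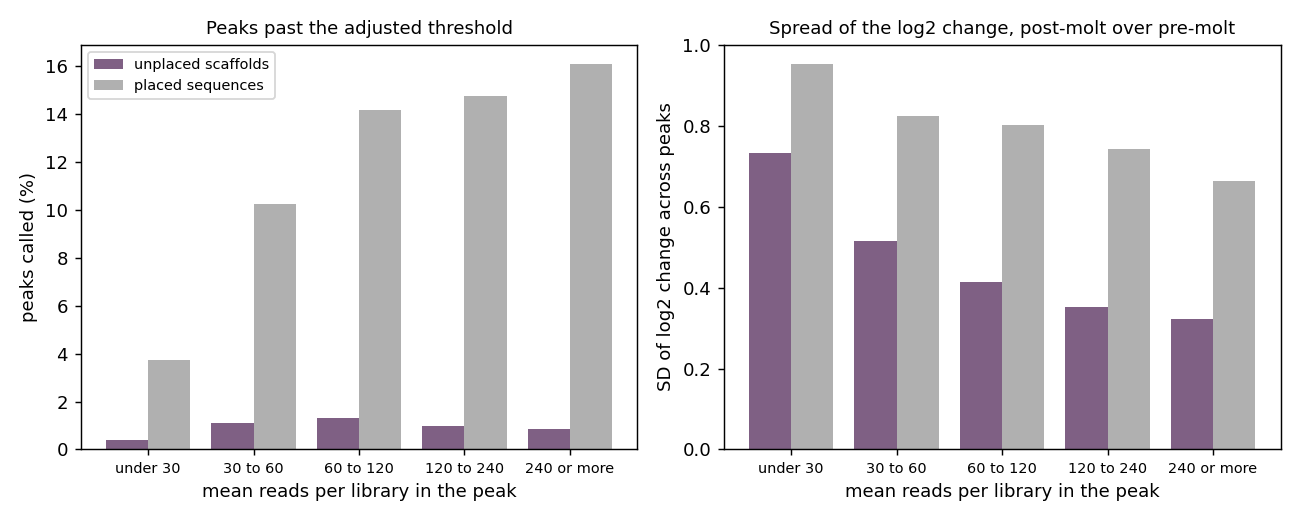
Left, percentage of merged peaks called between post-molt and pre-molt by mean reads per library, and right, the SD of the log2 change across peaks in the same ranges, for unplaced scaffolds (purple) and placed sequences (grey). On scaffolds at most 1.33% of peaks were called in any range, against up to 16.1% on placed sequences, and the spread of the changes was narrower in every range.

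Ranks of the peaks were alike in all libraries. Spearman's rho of the counts over the 7509 scaffold peaks averaged 0.863 between libraries of a stage (0.848 to 0.874) and 0.857 between libraries of different stages (0.829 to 0.873). Over the 97148 placed peaks the averages were 0.836 and 0.736. These correlations are across peaks that share libraries and are not independent, so they are descriptions only. On scaffolds, libraries of different stages were nearly as alike as replicates.

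CPM of the stages did not overlap in 217 scaffold peaks that were higher post-molt (2.89%, against 15% of all merged peaks) and in 594 that were lower (7.91%, against 12.1%). Peak calls gave a similar order, but they come from the same reads as the counts and are no separate support. A total of 26 scaffold peaks (0.346%, against 1.4% of all merged peaks) were called in all 3 post-molt and no pre-molt library, and 91 (1.21%, against 1.68%) in all 3 pre-molt and no post-molt library. Of the 26, 6 rose in the test, and of the 91, 10 fell. The number of scaffold peaks with a call per library was 3879, 3975 and 4252 post-molt and 4983, 4082 and 4503 pre-molt, with post-molt replicate 3 above pre-molt replicate 2.

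The 40 peaks that rose lay on 13 scaffolds and the 36 that fell on 27, and no scaffold held calls in both directions. Those that rose had log2 changes from 0.92 upwards, with a median of 1.43 (also with the 1 peak without pre-molt reads set at its lower bound), and a median mean count of 64.0 reads. Those that fell ranged from -2.79 to -1.002, with a median of -1.41 and 95.3 reads. A total of 29 of the 40 had no peak call in any pre-molt library, and 17 of the 36 none in any post-molt library. Every merged peak had a call in at least 1 library, so those 29 were in the table through post-molt calls alone. The 17 were there through pre-molt calls alone. Absent calls in the other stage are therefore no separate support for these changes. Of the peaks that rose, 18 were distal, 8 promoter, 7 intronic, 6 exonic and 1 in a 5′ UTR, and of those that fell, 20 were distal, 13 promoter, 2 intronic and 1 exonic. By class, 1.99% of promoter peaks on scaffolds were called (8.80% on placed sequences), 2.69% of exonic (7.36%), 1.57% of intronic (13.6%) and 0.693% of distal peaks (10.5%).

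More of the peaks that rose lay on JACDRO010000460.1 than on all other scaffolds together. This scaffold, singled out after its values were seen, held 22 of the 40 among its 113 merged peaks (19.5%) and none that fell. A total of 98 of the 113 had log2 changes above 0, with a median of 0.73. CPM summed over its peaks was 1140, 1035 and 1037 in post-molt replicates 1, 2 and 3, against 708, 1010 and 760 in pre-molt replicates 1, 2 and 3. All post-molt libraries lay above all pre-molt ones, though pre-molt replicate 2 came close. In the fit on reads summed per sequence its log2 change was 0.57 (SE 0.21, edgeR adjusted p = 0.519), which did not pass.

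The 22 peaks stretched from position 21524 to 230259, and 73 of the 113 peaks lay in that stretch, with a median log2 change of 0.90. The 40 peaks outside it had a median of 0.44. The stretch was bounded by the called peaks and holds all 22, so a higher median inside it follows in part from that choice. The 22 were linked to 7 neighbouring gene models, models 1 to 7 of the scaffold (evm.TU.JACDRO010000460.1.1 is the first), with 6 of 12 linked peaks of model 3, 5 of 14 of model 6, 3 of 5 of model 4 and 3 of 13 of model 5. A total of 6 were exonic, 6 intronic, 5 promoter, 4 distal and 1 in the 5′ UTR. The count rests on single libraries: it was 12, 11 and 9 without post-molt replicates 1, 2 and 3, and 19, 14 and 2 without pre-molt replicates 1, 2 and 3. It was 14 with median centring and 24 with DESeq2.

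**Figure D5:**
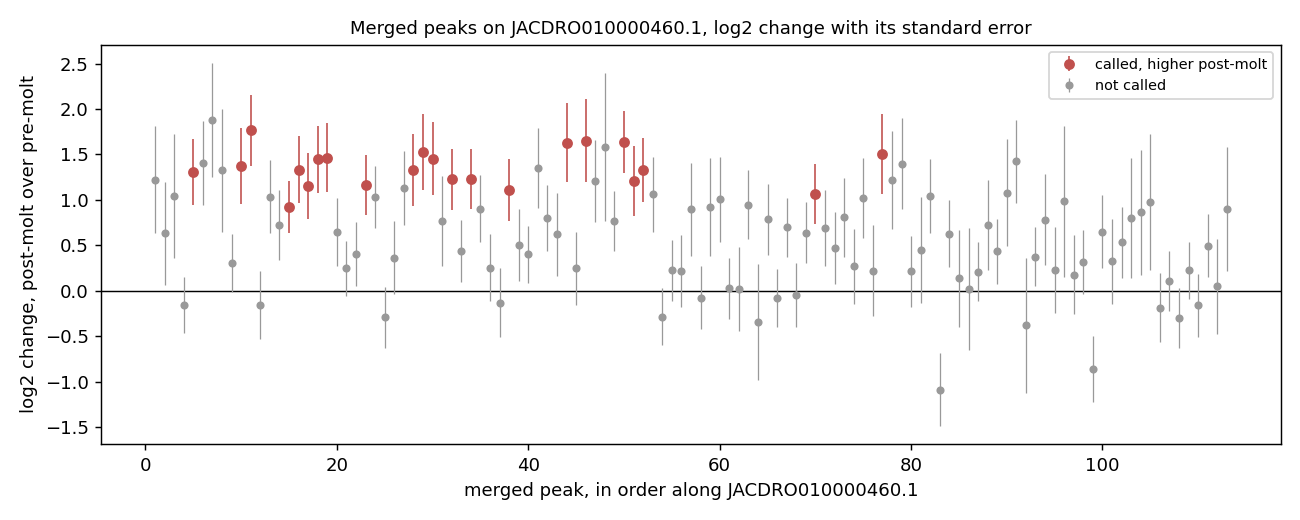
Log2 change, post-molt over pre-molt, of the 113 merged peaks of JACDRO010000460.1 in order along the scaffold, with standard errors as bars. The 22 peaks that passed the test (red) all lie above 0, between peaks 5 and 77, and 98 of the 113 points lie above 0.

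Among the peaks that rose with the smallest p, 5 of 8 lay on JACDRO010000460.1. The intronic peak JACDRO010000460.1:133503-134073 of model 6 measured 12.2, 10.01 and 11.3 CPM post-molt and 4.22, 3.92 and 2.61 CPM pre-molt. The stages were well apart, with a log2 change of 1.63 (3.10-fold, SE 0.34, edgeR adjusted p = 0.00415). JACDRO010000460.1:36359-36807, over the start of model 2, measured 6.54, 5.91 and 8.35 CPM post-molt and 1.78, 2.87 and 1.39 CPM pre-molt (3.40-fold, SE of the log2 change 0.39, edgeR adjusted p = 0.00592). Both stayed called under all 16 alternatives, and neither had a peak call in a pre-molt library.

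The remaining peaks of this scaffold in that group were less firm. JACDRO010000460.1:57749-58119, in intron 3 of model 3, measured 10.2, 11.1 and 11.4 CPM post-molt and 4.87, 5.11 and 1.91 CPM pre-molt (log2 change 1.45, SE 0.37, edgeR adjusted p = 0.0149). JACDRO010000460.1:60531-60833, in exon 3 of the same model, measured 6.71, 7.96 and 12.2 CPM post-molt and 3.25, 4.41 and 2.00 CPM pre-molt (log2 change 1.47, edgeR adjusted p = 0.0159). JACDRO010000460.1:139376-139694, a promoter peak of model 6, measured 9.64, 12.3 and 8.19 CPM post-molt and 4.95, 4.06 and 2.96 CPM pre-molt (log2 change 1.33, edgeR adjusted p = 0.0170). In each the stages did not overlap, but all 3 calls were lost without pre-molt replicate 3 (edgeR adjusted p = 0.0826, 0.0941 and 0.0893). Each also depended on a post-molt library: the first was lost without replicate 2 (edgeR adjusted p = 0.050), the next without replicate 3 (edgeR adjusted p = 0.109) and the last without replicate 2 (edgeR adjusted p = 0.103). The only 5′ UTR peak, JACDRO010000460.1:32705-33331 of model 2, named after its values were seen, also rose (log2 change 1.37, SE 0.42, edgeR adjusted p = 0.0394).

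On other scaffolds, the distal peak JACDRO010000925.1:104153-104896 measured 18.6, 19.9 and 15.5 CPM post-molt and 7.30, 9.38 and 6.26 CPM pre-molt. The stages did not overlap, and the log2 change was 1.23 (2.35-fold, SE 0.32, edgeR adjusted p = 0.0151). The call was lost without post-molt replicate 2 or pre-molt replicate 3 (edgeR adjusted p = 0.0794 and 0.0772). It was 1 of 3 peaks that rose on this scaffold, and JACDRO010000461.1 and JACDRO010003262.1 also held 3 each.

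A pair of called peaks rested on 2 of the 3 post-molt libraries. JACDRO010001643.1:21938-22462 held 77, 108 and 6 reads in post-molt replicates 1, 2 and 3 and 11, 4 and 3 reads in pre-molt replicates 1, 2 and 3. Post-molt replicate 3 lay within the pre-molt range, so the stages overlapped, although the fitted log2 change was 3.43 (SE 0.72, edgeR adjusted p = 0.00411). The call was lost without pre-molt replicate 2 (edgeR adjusted p = 0.0516) and on the log2 fold enrichment scale (limma adjusted p = 0.314 with 0.5 added). JACDRO010003234.1:115333-115566 held 40, 0 and 41 reads post-molt and 0 reads in each pre-molt library. It passed in edgeR (adjusted p = 0.00780) and not in DESeq2 (adjusted p = 0.243), and post-molt replicate 2 was at the pre-molt level.

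The peaks that fell were spread over more scaffolds. JACDRO010004311.1:183080-183431, classed as promoter at 2 to 3 kb from the start of evm.TU.JACDRO010004311.1.5, measured 4.22, 2.44 and 3.26 CPM post-molt against 9.90, 12.9 and 9.22 CPM pre-molt. The model spans positions 184387 to 185601 and starts at the latter, so the peak lies downstream of the start, beyond the other end of the model. The stages were well apart, with a log2 change of -1.69 (3.23-fold lower, SE 0.35, edgeR adjusted p = 0.00399), and the peak was called in all 3 pre-molt and no post-molt library. It was 1 of 4 peaks that fell on this scaffold, where all 43 peaks are linked to this 1 gene model. The other 3 lay 35753 to 112668 bp from its start. JACDRO010004311.1:183080-183431 stayed called under all 16 alternatives.

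JACDRO010003266.1:201541-202812, a promoter-class peak of evm.TU.JACDRO010003266.1.7, measured 13.6, 5.68 and 4.26 CPM post-molt and 41.2, 18.5 and 26.3 CPM pre-molt (log2 change -1.87, SE 0.40, edgeR adjusted p = 0.00496). The distal peak JACDRO010003252.1:195371-196071 measured 12.7, 22.4 and 26.0 CPM post-molt and 74.6, 48.9 and 47.1 CPM pre-molt (log2 change -1.48, SE 0.33, edgeR adjusted p = 0.00635). The distal peak JACDRO010000329.1:32925-33354 measured 2.24, 6.23 and 3.34 CPM post-molt and 12.3, 13.2 and 11.5 CPM pre-molt (log2 change -1.64, SE 0.37, edgeR adjusted p = 0.00698). In these peaks too every post-molt library lay below every pre-molt library, and the calls held under all 16 alternatives.

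JACDRO010000313.1:156722-158364, a promoter peak 248 bp from the start of evm.TU.JACDRO010000313.1.11, was the strongest of the 8 in reads. It measured 76.0, 67.0 and 26.1 CPM post-molt and 112, 240 and 147 CPM pre-molt. The stages did not overlap, with a log2 change of -1.56 (SE 0.37, edgeR adjusted p = 0.00957), and the call was lost without post-molt replicate 3 (edgeR adjusted p = 0.0861).

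The calls of the other 3 were lost on leaving out a single pre-molt library. JACDRO010001822.1:2778-3196 measured 6.63, 2.60 and 7.77 CPM post-molt and 7.79, 13.5 and 96.8 CPM pre-molt. Its log2 change of -2.79 (SE 0.63, edgeR adjusted p = 0.00667) became -0.91 without pre-molt replicate 3, which did not pass (edgeR adjusted p = 0.256). JACDRO010001822.1:7654-8336 measured 13.8, 23.8 and 7.85 CPM post-molt and 60.1, 15.8 and 109 CPM pre-molt, so that the stages overlapped (log2 change -2.02, edgeR adjusted p = 0.0100). Pre-molt replicates 1 and 3 were both high. The call was lost on leaving out pre-molt replicate 3 (log2 change -1.32, edgeR adjusted p = 0.133) or post-molt replicate 3 (edgeR adjusted p = 0.0593). In DESeq2 neither peak of this scaffold passed (adjusted p = 0.0746 and 0.0873). JACDRO010000333.1:8087-8474 measured 4.48, 8.12 and 10.4 CPM post-molt and 55.6, 20.2 and 10.1 CPM pre-molt, and was lost without pre-molt replicate 1 (edgeR adjusted p = 0.132, against 0.0108 with it).

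The strongest peaks outside JACDRO010004310.1 mostly did not pass. JACDRO010000954.1:62736-63860, a distal peak, had the highest mean and measured 240, 327 and 275 CPM post-molt and 437, 294 and 363 CPM pre-molt (log2 change -0.38, SE 0.29, edgeR adjusted p = 0.461). JACDRO010001296.1:42345-44653, in an exon, measured 215, 300 and 291 CPM post-molt and 321, 206 and 312 CPM pre-molt (log2 change -0.06, SE 0.29). JACDRO010003269.1:358369-361046, over the start of evm.TU.JACDRO010003269.1.5, measured 236, 258 and 272 CPM post-molt and 309, 247 and 286 CPM pre-molt (log2 change -0.14, SE 0.28). In all 3 the stages overlapped.

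JACDRO010001185.1:26314-29279, a distal peak of 2966 bp, measured 201, 194 and 235 CPM post-molt and 470, 198 and 331 CPM pre-molt. Its log2 change of -0.67 (SE 0.31, edgeR adjusted p = 0.198) became -0.92 without pre-molt replicate 2, which then passed (edgeR adjusted p = 0.0101). JACDRO010000236.1:50809-53076, in the last exon of evm.TU.JACDRO010000236.1.1, was the exception. It measured 149, 130 and 229 CPM post-molt and 377, 384 and 256 CPM pre-molt, without overlap (log2 change -1.002, SE 0.31, edgeR adjusted p = 0.0388). This call held under 7 of 16 alternatives, and left out 1 library at a time it was kept only without pre-molt replicate 2.

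Some strong scaffold peaks were nearly level between the stages. JACDRO010000287.1:104921-108144, over the start of evm.TU.JACDRO010000287.1.5, measured 124, 144 and 258 CPM post-molt and 180, 202 and 145 CPM pre-molt (log2 change -0.0013, SE 0.31). JACDRO010001297.1:4516-6276 measured 119, 150 and 147 CPM post-molt and 159, 109 and 154 CPM pre-molt (log2 change -0.02, SE 0.29). JACDRO010001298.1:51259-52432 measured 127, 143 and 161 CPM post-molt and 182, 99.4 and 164 CPM pre-molt (log2 change -0.04, SE 0.30). Their standard errors of about 0.3 leave room for changes of a size that the data could not detect.

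With reads summed per sequence, no scaffold passed the test. Of 313 scaffolds, 0 were called by edgeR (0% of the 385 sequences), 16 had an unadjusted p under 0.05, 13 of them higher and 3 lower post-molt, and DESeq2 called 1, JACDRO010001436.1. That scaffold, named after its values were seen, measured 24.9, 48.7 and 29.6 CPM post-molt and 96.7, 62.7 and 67.1 CPM pre-molt over its 5 peaks (log2 change -1.13, SE 0.29, edgeR adjusted p = 0.145), and its stages did not overlap. The log2 changes of all scaffolds ran from -1.13 to 0.90, with a median of 0.01, and 1 exceeded 1 in size. The TMM factors of this fit came from the summed reads, and 313 of the 385 sequences were scaffolds. The scaffold median near 0 and the split of the 16 are therefore relative to that scaling. In the fit across all merged peaks the median over scaffold peaks was -0.16.

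On the same scaling, none of the 5 scaffolds with the most merged peaks passed the test. JACDRO010003270.1, with 369 peaks and 29 linked genes, summed to 5607, 4869 and 6085 CPM post-molt and 5228, 3575 and 4912 CPM pre-molt (log2 change 0.27, SE 0.17). JACDRO010003252.1, with 202 peaks, summed to 1918, 1473 and 2704 CPM post-molt and 1441, 1898 and 1832 CPM pre-molt (log2 change 0.24, SE 0.21). JACDRO010003290.1, JACDRO010003269.1 and JACDRO010003284.1, with 256, 227 and 172 peaks, had log2 changes of 0.04, 0.02 and 0.01 (SE 0.20, 0.19 and 0.18). On all 5 the stages overlapped, and of their peaks 2, 1 and 3 fell on JACDRO010003290.1, JACDRO010003284.1 and JACDRO010003252.1, while none rose. Elsewhere peaks were thinly spread, with a median of 13 per scaffold.

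Of 653 genes linked to scaffold peaks, 4 were higher and 7 lower post-molt in the reads summed over their peaks (1.68%), against a background of 11% of all 17908 linked genes (6.9% higher and 4.11% lower). The link is the authors' and joins a peak to a gene model at any distance. Of the 4 that were higher, 3 lay on JACDRO010000460.1. Its model 4 measured 36.4, 30.7 and 27.6 CPM post-molt and 20.0, 12.8 and 8.90 CPM pre-molt over 5 peaks (log2 change 1.18, SE 0.27, edgeR adjusted p = 0.0121). Model 2 had a log2 change of 0.86 (SE 0.23, edgeR adjusted p = 0.0252) and model 5 one of 0.81 (SE 0.23, edgeR adjusted p = 0.0294). The stages did not overlap in any of the 3, but over 12 alternatives the call of model 4 held in 10, that of model 2 in 7 and that of model 5 in 6. All 3 calls were lost without pre-molt replicate 2, and all 3 also without pre-molt replicate 3.

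evm.TU.JACDRO010003262.1.3 was the other, at 171, 192 and 184 CPM post-molt and 121, 83.2 and 120 CPM pre-molt over 18 peaks (log2 change 0.76, SE 0.23, edgeR adjusted p = 0.0417). Its call was lost in 10 of 12 alternatives, among them the fit without pre-molt replicate 2. Model 3 of JACDRO010000460.1 came next, at 200, 212 and 208 CPM post-molt and 111, 162 and 105 CPM pre-molt, and did not pass (log2 change 0.71, SE 0.23, edgeR adjusted p = 0.0589).

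Among genes that were lower, evm.TU.JACDRO010001436.1.1, a model of 1368 bp, had the smallest p. It measured 23.9, 46.0 and 28.2 CPM post-molt and 117, 61.1 and 66.2 CPM pre-molt (log2 change -1.31, SE 0.30, edgeR adjusted p = 0.0105), without overlap, and was called in all 12 alternatives. Its 5 linked peaks are all the merged peaks of JACDRO010001436.1. These are thus the same reads that did not pass when summed per sequence (edgeR adjusted p = 0.145). The 1 called peak among them lay 53544 bp from the start of the model. evm.TU.JACDRO010000313.1.11 measured 204, 172 and 71.6 CPM post-molt and 302, 444 and 283 CPM pre-molt (log2 change -1.20, SE 0.32, edgeR adjusted p = 0.0256), and its call was lost without post-molt replicate 3 or pre-molt replicate 2. evm.TU.JACDRO010003275.1.13 measured 20.3, 8.30 and 13.0 CPM post-molt and 23.3, 25.4 and 39.7 CPM pre-molt (log2 change -1.09, SE 0.31, edgeR adjusted p = 0.0308). Its call held in 8 of 12 alternatives and was lost, among others, without pre-molt replicate 2.

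A pair of overlapping models on JACDRO010003284.1 was also lower, so reads between them depend on how peaks were linked. evm.TU.JACDRO010003284.1.8, at positions 31937 to 78063, measured 3.29, 5.35 and 2.10 CPM post-molt and 7.02, 8.63 and 10.9 CPM pre-molt (log2 change -1.30, SE 0.36, edgeR adjusted p = 0.0296). evm.TU.JACDRO010003284.1.4, which lies inside it at positions 52968 to 53886, rested on 1 peak with 9, 7 and 4 reads post-molt and 35, 22 and 37 reads pre-molt (log2 change -2.12, SE 0.61, edgeR adjusted p = 0.0364). Each call held in 8 of 12 alternatives. Without pre-molt replicate 2 the call of evm.TU.JACDRO010003284.1.8 was lost and that of evm.TU.JACDRO010003284.1.4 was kept. The scaffold as a whole had a log2 change of 0.01 (SE 0.18). Without pre-molt replicate 2, 18 genes were called, 1 higher and 17 lower, and only 3 of them were among the 11 called with all libraries. All 4 genes that were higher with all libraries lost their call there. The number of genes called was 3 without pre-molt replicate 3, 5 without post-molt replicate 3, and 18 with DESeq2.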

How the data were processed

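ATAC-seq reads of 6 libraries, paired reads of 150 bases, were aligned by the authors with BWA and peaks were called with MACS2 (no versions in the submitters' notes). The study's methods describe a mapping quality threshold, duplicates kept and all summits reported, but only for its libraries from molting crabs. Whether these 6 were treated alike, how lists were merged and reads counted and any shift for the Tn5 offset were not given in the sources used. The methods state that the genome, downloaded from NCBI, was of one version for the authors' ATAC-seq series, and give no build name. Read placement in repeated sequence depends on the mapping quality cut, and PCR copies may count as reads. That each library came from a separate crab is taken from the labels' wording on sampling.

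The deposited merged table holds whole-number read counts, which were tested. It also holds RPM values, which the authors computed from count plus 1 and from which library totals were recovered, a fold enrichment ratio of reads per base over a uniform background, and a sign for a peak call in each library. The deposited peak lists give a summit fold ratio and the -log10 of p and q, used as descriptions. The table's own log2 fold changes, p-values and q-values compare the stages and were not used. Coordinates are 1-based on the authors' assembly.

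Counts of all 104657 merged peaks were fitted with edgeR 4.0.16 (R 4.3.3; TMM, no filter on low counts, quasi-likelihood test, Benjamini-Hochberg adjusted p under 0.05), and likewise counts summed per sequence and per linked gene. The standard errors (SE) given are the absolute log2 change divided by the square root of that test's F statistic. They were derived from the test and not estimated directly. Shares were compared by exact permutation (scipy 1.17.1). DESeq2 1.42.0, limma 3.58.1 on log2(fold enrichment + 0.5) and (+ 0.1), other scalings, filters and left-out libraries were alternatives.

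Named peaks were the 6 densest of JACDRO010004310.1; elsewhere the 8 that rose and 8 that fell with the smallest p, the 5 with the highest mean CPM and the 3 most level among the 30 highest; the 5 scaffolds with the most peaks; and the 5 higher and 5 lower genes with the smallest p. A peak with under 10 reads in a stage is given by reads. The peaks, lists and rules were chosen with earlier results of these data known.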

Additional observations from a re-analysis of the deposited data

Results flagged for a closer look

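The peak lists of single libraries held regions on scaffolds that have no row in the merged table, so these regions entered no comparison above. Their number per library, after collapsing summits, ran from 6747 regions in pre-molt replicate 2 to 8989 regions in pre-molt replicate 1, with 7439, 7111 and 7747 in post-molt replicates 1, 2 and 3 and 7320 in pre-molt replicate 3. They made up 60.3% to 63.2% of all scaffold regions in a list. With 3 libraries a stage, no library was tested as an outlier within its stage.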

How the results depend on the processing

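Of scaffold peaks, 40 were higher and 36 lower as reported. Lower peaks numbered 67 with median centring and 62 with DESeq2. Leaving out 1 library at a time gave 13 to 47 higher and 14 to 91 lower peaks, from fits with fewer samples. For the other settings here the cause was not tested. Scaffolds called from summed reads numbered 0 in the fit as reported, 1 with library totals, 1 with the scaling of all merged peaks, 1 with DESeq2 and 0 to 3 without 1 library. The summed log2 change of JACDRO010004310.1 was 0.01, but -0.043 with DESeq2 size factors, -0.23 with library totals, -0.20 with the scaling of all merged peaks, -0.043 with DESeq2, and -0.17 to 0.19 without 1 library. It passed the threshold under none of them. Linked genes called numbered 11, 6 with library totals, 18 with DESeq2, and 3 to 18 without 1 library. The difference in share kept its sign under library totals, the filter and the removal of the largest peak. Without 1 library it ran from -2.23 to 0.67 points over all scaffolds, from -0.84 to 0.41 for JACDRO010004310.1 and from -1.39 to 0.74 for the others. Named peaks that changed sign were all uncalled: JACDRO010004310.1:36360-37659 (-0.27 to 0.0018 without 1 library), JACDRO010001296.1:42345-44653 (-0.22 to 0.079), JACDRO010000287.1:104921-108144 (0.00050 with filterByExpr, -0.39 to 0.19), JACDRO010001297.1:4516-6276 (-0.16 to 0.081) and JACDRO010001298.1:51259-52432 (-0.25 to 0.12).

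Replicate numbers did not pair the libraries: deviations from the stage means of same-numbered libraries correlated at -0.09, -0.10 and -0.03. With the replicate number as a block, 42 scaffold peaks were higher and 38 lower, of which 34 and 27 were also called without it, 3 scaffolds and 12 genes were called, and JACDRO010004310.1 had a log2 change of 0.02.

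With 3 libraries a stage, changes of the size seen in most scaffold peaks are within the standard errors, and a peak that did not pass is not shown to be level. Peaks at the low end of the reads rest on few molecules.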
